A study of Mus musculus with 9 samples.

Results

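The genes described here encode the machinery of mitosis: the kinases and cyclins that start it, the kinetochore and the checkpoint that watches it, the condensins that compact chromosomes, the spindle proteins, and the proteins that divide the cell. They were followed through the differentiation of mouse muscle cells in culture. The list holds 51 gene symbols, and kinesins were left out of it by its rule, although the kinetochore motor Cenpe is on it. Probe sets were taken whose platform annotation names one of these genes alone, and where a gene had several, the one with the highest mean over all arrays stood for it. This gave 50 of 51 genes, out of 19938 genes with such a probe set on the array. The exception was the cyclin gene Ccnb1, for which no probe set naming it alone was in the table, so it has no value here.

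Gene expression was measured on 9 Affymetrix arrays in primary muscle cells of wild-type Balb/c mice, as myoblasts and as the myotubes they formed. Cycling myoblasts (0 days) had 3 arrays, as did the myotubes after 2 days and those after 5 days of differentiation. The titles place the myotubes in a differentiating medium, whereas the growth protocol attached to every sample names one medium with serum and the growth factor bFGF, so the medium of the myotubes rests on the titles alone. No label says whether the replicates came from separate cultures or animals, so the p-values below rest on differences among arrays that may be no more than technical.

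Mitosis is driven by Cdk1 bound to its cyclins. Kinetochores join each chromosome to the spindle, the spindle assembly checkpoint holds back the anaphase-promoting complex until all are joined, and separase then cuts the cohesin that holds sister chromatids together. In muscle, myoblasts leave the cell cycle for good before they fuse, and the nuclei of a myotube do not divide again. Many genes of this machinery are transcribed in the later part of the cell cycle, and in other cell systems their promoters are known for a CHR element bound by the MuvB complexes and for CCAAT boxes bound by NF-Y. MuvB acts with B-Myb (Mybl2) and Foxm1 when such genes are on, and within the DREAM complex when they are off.

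The promoters of several members carry these letters, as shown by 7 windows of 250 bases before the RefSeq start (GRCm38.p6). They belong to the mitotic kinase Cdk1 (chr10:69352913-69353162, minus strand), its cyclin Ccnb2 (chr9:70421555-70421804, minus strand), the kinase Plk1 (chr7:122159185-122159434, plus strand) and the topoisomerase Top2a (chr11:99024190-99024439, minus strand). The others belong to Bub3 (chr7:131560120-131560369, plus strand), Ect2 (chr3:27153855-27154104, minus strand) and Nuf2 (chr1:169531465-169531714, minus strand). The first 4 are core mitotic genes, Bub3 had the smallest fall of all members, Ect2 alone fell at least 2-fold on both scales between day 2 and day 5, and Nuf2 had the largest fitted fall at day 2. Each is written 5′ to 3′ in the direction of the gene and ends at the base before the start. Capitals mark the CHR letters TTTGAA or TTTAAA and the CCAAT box letters CCAAT on either strand, so that TTCAAA and ATTGG are the same letters on the opposite strand.
Cdk1: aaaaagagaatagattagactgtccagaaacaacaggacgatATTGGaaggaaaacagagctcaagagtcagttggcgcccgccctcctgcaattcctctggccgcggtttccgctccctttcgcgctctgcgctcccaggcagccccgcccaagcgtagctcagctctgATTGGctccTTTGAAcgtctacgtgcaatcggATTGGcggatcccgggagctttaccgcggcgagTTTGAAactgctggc
Ccnb2: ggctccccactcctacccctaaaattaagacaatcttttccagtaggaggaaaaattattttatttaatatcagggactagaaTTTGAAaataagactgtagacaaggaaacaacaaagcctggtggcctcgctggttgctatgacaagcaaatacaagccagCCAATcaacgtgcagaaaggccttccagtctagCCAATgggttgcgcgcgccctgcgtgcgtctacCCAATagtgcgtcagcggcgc
Plk1: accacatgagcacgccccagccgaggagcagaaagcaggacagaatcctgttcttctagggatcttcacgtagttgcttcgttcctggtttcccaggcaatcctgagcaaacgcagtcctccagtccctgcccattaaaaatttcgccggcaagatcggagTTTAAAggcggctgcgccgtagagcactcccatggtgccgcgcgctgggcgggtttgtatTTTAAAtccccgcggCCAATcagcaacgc
Top2a: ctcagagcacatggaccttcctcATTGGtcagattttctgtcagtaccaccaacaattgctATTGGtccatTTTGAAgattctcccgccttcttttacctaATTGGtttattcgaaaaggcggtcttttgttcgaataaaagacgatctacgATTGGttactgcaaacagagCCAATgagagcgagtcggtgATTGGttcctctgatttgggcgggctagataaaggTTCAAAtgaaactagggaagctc
Bub3: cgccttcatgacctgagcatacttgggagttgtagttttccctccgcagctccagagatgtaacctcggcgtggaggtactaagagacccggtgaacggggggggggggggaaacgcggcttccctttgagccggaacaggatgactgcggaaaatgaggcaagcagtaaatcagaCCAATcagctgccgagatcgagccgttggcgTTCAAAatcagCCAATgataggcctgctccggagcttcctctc
Ect2: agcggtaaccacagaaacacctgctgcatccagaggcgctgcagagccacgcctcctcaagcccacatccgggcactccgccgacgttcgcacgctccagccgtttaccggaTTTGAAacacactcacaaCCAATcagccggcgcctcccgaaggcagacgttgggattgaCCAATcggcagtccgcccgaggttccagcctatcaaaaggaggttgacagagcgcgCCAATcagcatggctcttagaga
Nuf2: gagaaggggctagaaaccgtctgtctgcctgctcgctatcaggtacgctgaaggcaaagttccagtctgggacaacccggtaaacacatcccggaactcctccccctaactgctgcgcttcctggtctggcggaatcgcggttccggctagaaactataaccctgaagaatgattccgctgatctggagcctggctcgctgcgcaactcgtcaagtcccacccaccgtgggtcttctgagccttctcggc
The Ccnb2 window holds CCAAT boxes that begin 87, 54 and 21 bases before the start, and the Cdk1 window holds CHR letters 71 and 15 bases before it. Top2a has 6 CCAAT boxes and 2 CHR matches in its window, whereas the Nuf2 window has neither kind of match.

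RefSeq promoter windows were at hand for 43 members, and 8 members had none (Foxm1, Ccna2, Cdc25c, Tpx2, Smc4, Spc24, Aurkb and Incenp). Some genes have several annotated starts, which gave 48 windows. CCAAT box letters were found in 72.9% of the member windows, against 33.8% of all 32851 windows of the same length, and at least 1 window held them in 30 of 43 members. Within 100 bases of the start the CCAAT letters were in 58.3% of member windows and in 18.9% of all windows. CHR letters were in 43.8% of member windows, against 25.2% of all windows, and 19 of 43 members had them. CHR letters within 100 bases together with a CCAAT box anywhere in the window were in 11 of 43 members, which is 22.9% of member windows, against 3.33% of all windows. E2F letters (TTCCCGC or the variant TTCGCGC, and likewise TTGCCGC or the variant TTGGCGC, on either strand) were in 14.6% of member windows and 7.89% of all windows, and the last of these can share bases with a CCAAT box, as it does in Ect2. These are matches of letters, not measured binding, and no test was made of them. The medians of the fall described below lay close together with and without these letters. On the common scale, the median log2 fold change at day 2 was -3.52 for the 18 measured members with CHR letters and -3.85 for the 24 without. It was -3.84 for the 29 with a CCAAT box and -3.55 for the 13 without, and -3.71 for the 6 with E2F letters and -3.81 for the 36 without. Within 100 bases of the start the order turned for CHR letters (-3.96 with, -3.795 without) and for the CCAAT box (-3.795 with, -3.84 without).

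**Figure D1:**
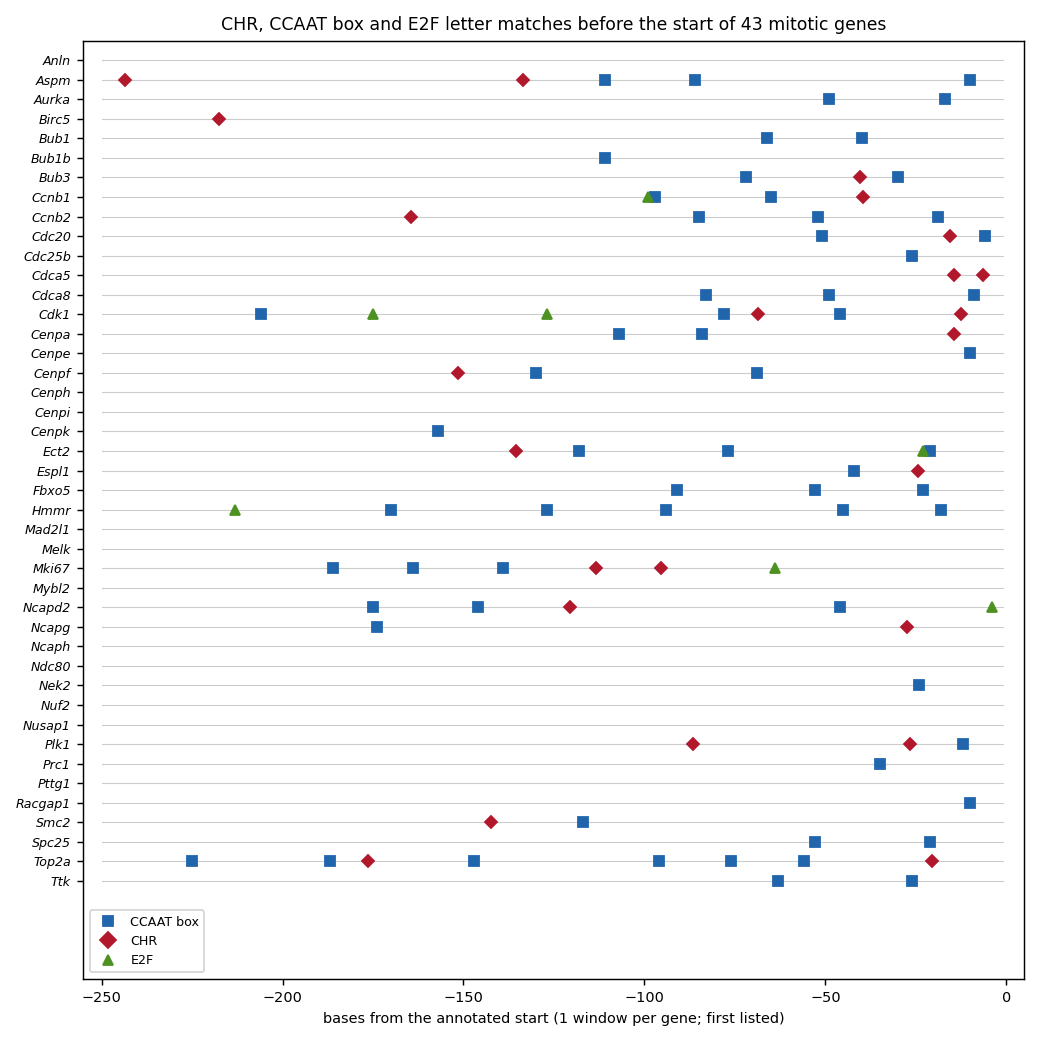
Positions of CHR (diamonds), CCAAT box (squares) and E2F (triangles) letters before the annotated start of 43 members, in bases, with 1 window per gene. The 30 members with CCAAT letters in any window have many of them within 100 bases of the start, and members such as Nuf2, Mybl2 and Mad2l1 have no match in this window.

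The deposited values are log2 values from RMA, and the arrays of each time point were normalized together but apart from the other times. All changes are therefore given as log2 fold changes (log2FC) on 2 scales: as deposited, then on a common scale made by quantile normalization of all 9 arrays. Because each normalization set is a time point, a general shift between times cannot be told apart from the normalization. The median of all 16582 genes tested moved by -0.014 and 0.087 at day 2 and by -0.37 and 0.17 at day 5, both against cycling myoblasts, on the 2 scales in that order. Many low values in the table are plateaus: between 54.8% and 68.4% of the probe sets of an array share their exact value with another, and replicate values are often identical. Of the members, 43 had an SD of 0 over the day 2 arrays, 42 over the day 5 arrays and 25 over the myoblast arrays, and the largest SD of any member at any time was 0.120. The spread that limma uses is therefore too small, and sizes say more here than p-values. Non-overlap of arrays rests on the same small spread. Over all probe sets, 47.9% had the same value on all 3 myoblast arrays, 60.2% on the day 2 arrays and 56.7% on the day 5 arrays.

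All 50 members were measured well up the scale in cycling myoblasts, and most were low in myotubes, where 36 of 50 at day 2 and 37 of 50 at day 5 were under the array median. Their mean log2 levels ran between 6.11 and 9.99 in cycling myoblasts, with a median of 8.07. At day 2 they ran between 2.35 and 8.84 (median 3.80), and at day 5 between 2.01 and 8.41 (median 3.48). Within the array's own distribution, the median member stood at the 87.9th percentile in cycling myoblasts, at the 40.2nd at day 2 and at the 38.8th at day 5. In bulk RNA, fewer cycling cells in the culture and less of these RNAs in each cell cannot be told apart. As a yardstick for a low signal, chosen after the values were seen, the 95th percentile of 1015 olfactory receptor genes was used, which lay between 3.67 and 3.70 on the myoblast arrays, 3.80 and 3.85 at day 2 and 3.63 and 3.66 at day 5. All 3 myoblast arrays were above it for 50 members, all day 2 arrays for 22 and all day 5 arrays for 20, while 79.6%, 79.9% and 79.0% of all genes tested were above it at those times. At day 2, 35 of 50 members were on an exact value held by at least 50 probe sets on each array, and at day 5, 29 of 50 did, against 0 of 50 in cycling myoblasts. The kinases Nek2, Bub1b and Melk, for example, all stood at exactly 3.57 on the day 2 arrays, a value held by at least 495 probe sets. Most falls are thus measured on the high side only, which leaves their size and rank uncertain. A lower bound for each fall was therefore taken as the myoblast mean over the higher of the member's own level and the yardstick. At day 2, 12 members were above the yardstick but on a value held by at least 50 probe sets, and their falls are written as bounds too.

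**Figure D2:**
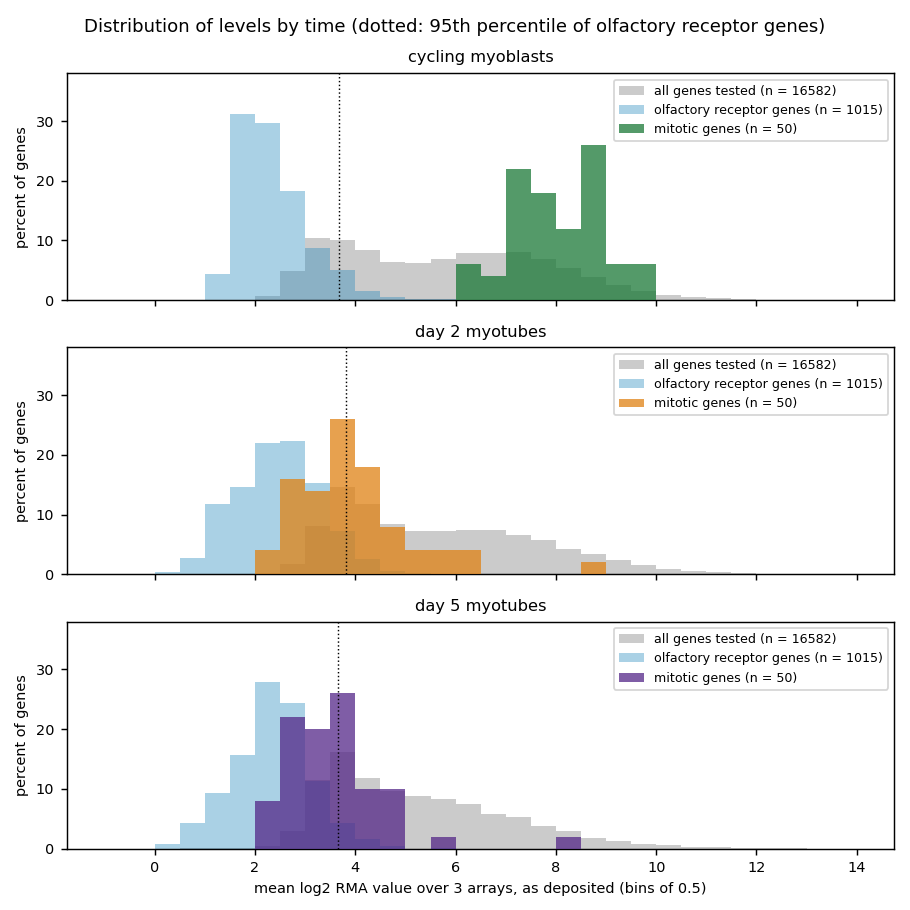
Percent of genes in bins of mean log2 RMA value (as deposited) in cycling myoblasts, day 2 myotubes and day 5 myotubes, for the 50 mitotic genes (coloured), all 16582 genes tested (grey) and 1015 olfactory receptor genes (blue), with the olfactory 95th percentile dotted. The mitotic genes have a median of 8.07 in cycling myoblasts and of 3.80 and 3.48 at day 2 and day 5, where they lie over the upper part of the olfactory receptor genes.

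After 2 days every measured member was lower than in cycling myoblasts. At least 2-fold lower on both scales were 50 of 50 members, where 8.41% of all genes tested were, and 0 members were higher, where 6.04% of all genes were. Of the 50 members, 13 were at or below the 30th percentile at both later times, so they entered the fit through the myoblast arrays alone, and the count is a description. The day 2 and myoblast arrays did not overlap for any member, but the share of all genes without overlap was not counted. The members had a median log2FC of -4.08 on the deposited values and of -3.79 after the joint normalization. Taken as bounds, the falls were at least 2.21-fold as deposited and 2.06-fold on the common scale for every member, with a median bound of 13.3-fold and 11.1-fold. At least 16-fold lower by the fitted values on both scales were 20 members, out of 50 such genes in all (0.302% of genes tested). Members were thus 40% of that list, and 40% of the members were on it. Another 6 of those 50 genes were on the other lists of mitotic genes described further on.

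Against cycling myoblasts the day 5 arrays gave nearly the same count. At least 2-fold lower on both scales were 49 of 50 members, where 12.3% of all genes tested were, and 0 were higher, where 4.44% were. Their median log2FC on the 2 scales was -4.47 and -3.87. The member that did not pass was Bub3, at -1.57 as deposited and -0.78 on the common scale. No member's day 5 arrays overlapped its myoblast arrays, and here too the share of all genes was not counted. Both comparisons use the same myoblast arrays.

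**Figure D3:**
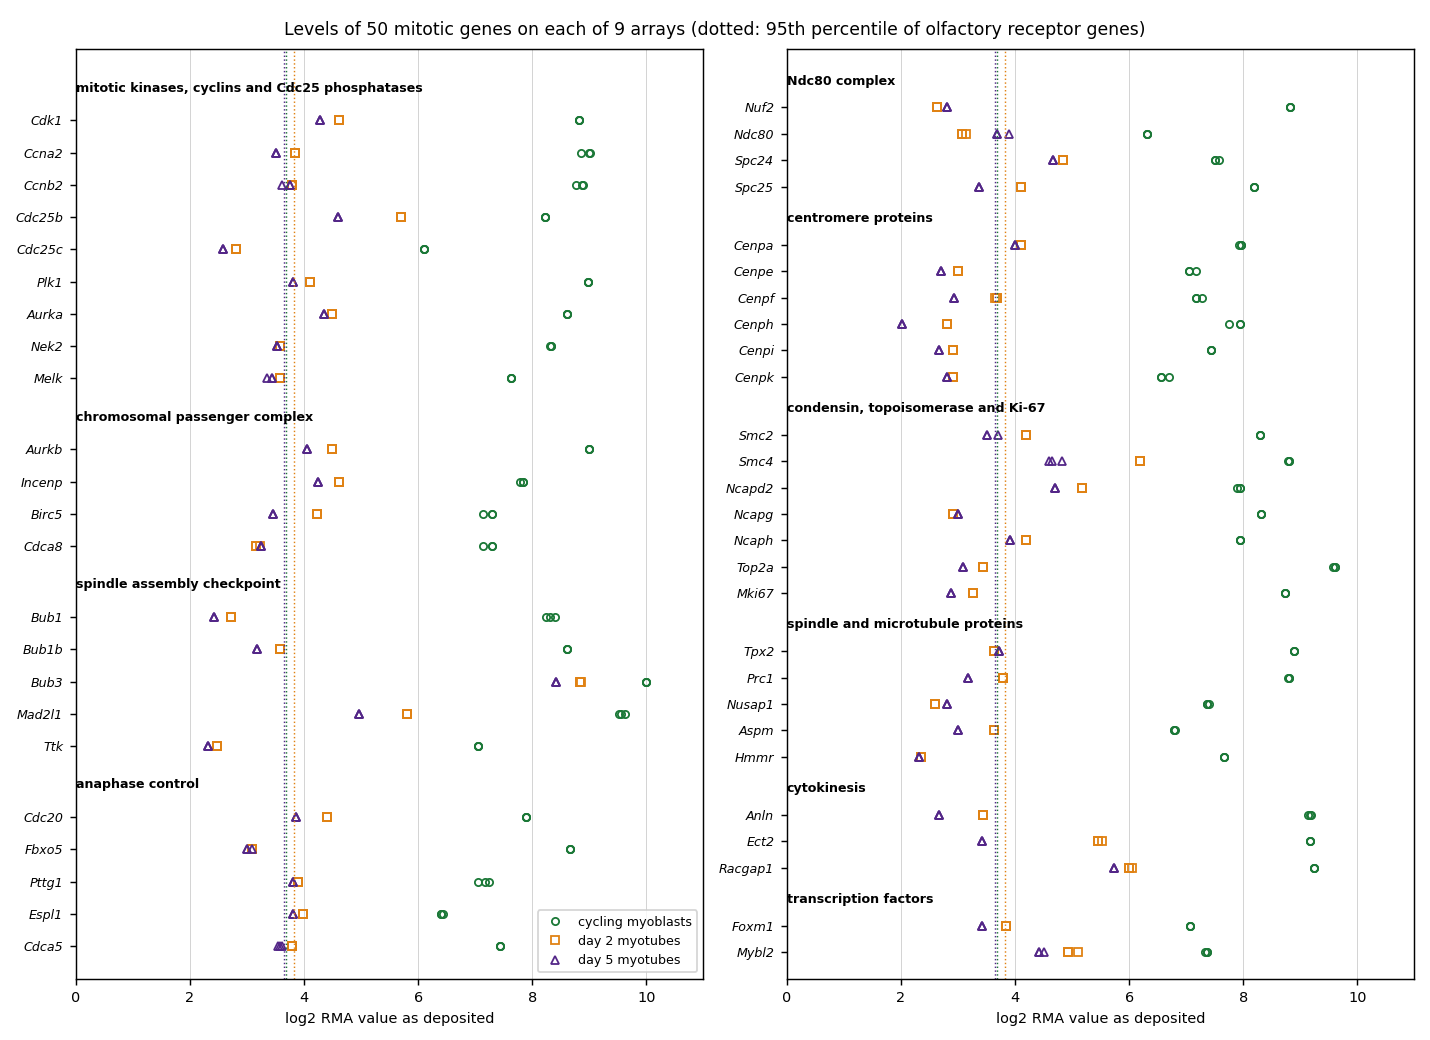
Log2 RMA value as deposited of each of 50 mitotic genes on each of 9 arrays, by role, for cycling myoblasts (circles), day 2 myotubes (squares) and day 5 myotubes (triangles), with the olfactory receptor 95th percentile of each time dotted. Myoblast values lie to the right of both myotube groups for every gene, and 22 genes at day 2 and 20 at day 5 stay above the dotted line on all 3 arrays.

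The kinases, cyclins and phosphatases that bring cells into mitosis all fell, 9 of 9 measured at both times. Cdk1, the kinase at the centre of mitotic entry, was 8.82 on each myoblast array, 4.62 on each day 2 array and 4.27 on each day 5 array. Ccnb2, a B-type cyclin, was 8.77, 8.89 and 8.88 in cycling myoblasts, 3.79 on each day 2 array and 3.61, 3.75 and 3.75 at day 5. Both were high on the 3 myoblast arrays alone, and Cdk1 stayed above the olfactory yardstick at both later times. At day 2 Cdk1 was at least 18.4-fold lower as deposited and 15.5-fold on the common scale (log2FC -4.21 and -3.96, common-scale SE 0.0127, limma adjusted p = 4.8e-14). Ccnb2 was at least 32.5-fold and 28.4-fold lower. Ccna2, the cyclin that acts from S phase into mitosis, was 8.85, 9.02 and 8.99 in cycling myoblasts and 3.85 on each day 2 array, at least 34.5-fold and 30.2-fold lower at day 2.

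Plk1, a kinase with tasks from mitotic entry to cytokinesis, was 8.97 on each myoblast array, 4.11 at day 2 and 3.81 at day 5 on each array, and at day 2 it was at least 29.2-fold and 25.3-fold lower. The centrosome kinase Aurka was 8.60, 4.50 and 4.35 on each array of the 3 times in order, at least 17.2-fold and 14.5-fold lower at day 2. Nek2, which helps centrosomes part, and Melk, a kinase whose RNA peaks in mitosis, both ended on the shared value of 3.57 at day 2 and were at least 22.7-fold and 13.9-fold lower as deposited. The 2 phosphatases that activate Cdk1 differed in where they stopped. Cdc25b was 8.23 on each myoblast array, 5.70 at day 2 and 4.59 at day 5, so it was well above the yardstick at all times. Its fall at day 2 was 5.76-fold and 4.76-fold. Cdc25c was 6.11 on each myoblast array, the lowest myoblast value among the members, and 2.81 at day 2, so its fall is known only as at least 4.87-fold and 3.94-fold.

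In the chromosomal passenger complex, which corrects faulty kinetochore attachments, 4 of 4 members fell at both times. Its kinase Aurkb was 9.00 on each myoblast array, 4.50 at day 2 and 4.06 at day 5, and at day 2 it was at least 22.7-fold and 19.2-fold lower. The scaffold Incenp was 7.78, 7.83 and 7.83 in cycling myoblasts and 4.62 on each day 2 array, at least 9.18-fold and 7.40-fold lower at day 2. These 2 subunits stayed above the yardstick at both later times. Birc5, the survivin subunit, was 7.14, 7.29 and 7.29 in cycling myoblasts, 4.23 on each day 2 array and 3.46 on each day 5 array, so it was above the yardstick at day 2 and below it at day 5. Cdca8, known as borealin, was below it at both times and was at least 10.7-fold and 8.67-fold lower at day 2.

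The spindle assembly checkpoint held both the shallowest fall of the list and some of the deepest. Bub3, a WD-repeat protein that brings Bub1 and BubR1 to kinetochores, was 9.99 on each myoblast array, 8.85, 8.83 and 8.84 at day 2 and 8.41 on each day 5 array. It was the one member far up the array's distribution at all 3 times. At day 2 it was 2.21-fold and 2.06-fold lower (log2FC -1.15 and -1.04, common-scale SE 0.0145, limma adjusted p = 1.08e-10). Its partner kinase Bub1 was 8.24, 8.40 and 8.31 in cycling myoblasts and 2.71 on each day 2 array, at least 22.6-fold and 19.3-fold lower. Bub1b, which encodes BubR1, was 8.61 on each myoblast array and 3.57 on each day 2 array, at least 27.7-fold and 24.2-fold lower. The checkpoint kinase Ttk was at least 9.33-fold and 7.51-fold lower at day 2. Mad2l1, whose protein binds and holds Cdc20, was 9.51, 9.55 and 9.63 in cycling myoblasts, 5.80 on each day 2 array and 4.96 on each day 5 array. It stayed clear of the yardstick, with a fall of 13.6-fold and 11.7-fold at day 2. Of the 5 checkpoint members, 5 fell at day 2 and 4 at day 5.

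Of the genes that control anaphase, 5 of 5 fell at both times. Cdc20, the activator of the anaphase-promoting complex, was 7.89 on each myoblast array, 4.41 at day 2 and 3.86 at day 5, and was 11.2-fold and 8.97-fold lower at day 2. Fbxo5, also called Emi1, an inhibitor of the same complex, was 8.67 on each myoblast array and 3.10 on each day 2 array, at least 28.8-fold and 25.2-fold lower. Separase (Espl1), the protease that opens cohesin, was 6.40, 6.44 and 6.40 in cycling myoblasts, 3.99 on each day 2 array and 3.81 on each day 5 array. Both it and securin (Pttg1), which holds separase inactive, lay just above the yardstick in myotubes. At day 2 Espl1 was at least 5.37-fold and 4.29-fold lower. Pttg1 was 7.04, 7.17 and 7.23 in cycling myoblasts and 3.90 on each day 2 array, at least 9.54-fold and 7.70-fold lower. Cdca5, known as sororin, a protector of cohesin, was at least 12.2-fold lower as deposited at day 2.

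The Ndc80 complex, the part of the kinetochore that holds microtubules, fell in all 4 of its subunits at both times. Nuf2 was 8.82 on each myoblast array, 2.64 on each day 2 array and 2.81 on each day 5 array. Its fitted log2FC of -6.18 and -6.01 was the largest of all members at day 2, yet the day 2 level lay below the yardstick, so the fall is known only as at least 31.9-fold and 27.9-fold. Ndc80 itself was 6.32 on each myoblast array, 3.08, 3.08 and 3.13 at day 2 and 3.89, 3.68 and 3.68 at day 5. It was the member with the largest upward difference from day 2 to day 5. Spc24 and Spc25, the subunits that anchor the complex to the inner kinetochore, parted in where they ended. Spc24 was 7.50, 7.58 and 7.50 in cycling myoblasts, 4.84 on each day 2 array and 4.67 on each day 5 array, well above the yardstick, whereas Spc25 was 8.20, 4.11 and 3.37 on each array of the 3 times in order. Their falls at day 2 were 6.43-fold and 5.09-fold for Spc24 and at least 17.02-fold and 14.3-fold for Spc25.

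Among the centromere proteins 6 of 6 fell at both times, and 5 of 6 were below the yardstick on all arrays of either myotube group. The centromeric histone Cenpa was the exception, at 7.92, 7.96 and 7.96 in cycling myoblasts, 4.11 on each day 2 array and 4.00 on each day 5 array, at least 14.3-fold and 11.9-fold lower at day 2. Cenph, Cenpi and Cenpk, which sit at the centromere with it through the cell cycle, had bounds at day 2 of 16.6-fold, 12.2-fold and 6.91-fold as deposited. Cenpi and Cenpk were both on the day 2 value of 2.92, held by at least 756 probe sets. The kinetochore motor Cenpe and the large kinetochore protein Cenpf, which appears late in the cell cycle, were at least 9.63-fold and 10.5-fold lower as deposited at day 2.

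Of the condensin subunits, Top2a and Ki-67, 7 of 7 fell at both times, but the condensin subunits differed in depth. The ATPase Smc4 was 8.78, 8.80 and 8.79 in cycling myoblasts, 6.19 on each day 2 array and 4.60, 4.65 and 4.82 at day 5. Its partner Smc2 was 8.29 on each myoblast array, 4.19 on each day 2 array and 3.50, 3.50 and 3.71 at day 5. The fall of Smc4 at day 2 was 6.08-fold and 5.34-fold, where that of Smc2 was at least 17.2-fold and 14.3-fold. The condensin I subunit Ncapd2 was 7.90, 7.95 and 7.95 in cycling myoblasts, 5.18 on each day 2 array and 4.70 on each day 5 array, while Ncapg was 8.30, 2.92 and 3.00 on each array of the 3 times in order. At day 2 Ncapd2 was 6.74-fold and 5.41-fold lower, Ncaph was at least 13.6-fold and 11.2-fold lower, and Ncapg was at least 22.3-fold and 19.1-fold lower.

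Top2a, the topoisomerase that untangles sister chromatids, was 9.58, 9.61 and 9.61 in cycling myoblasts, 3.44 on each day 2 array and 3.08 on each day 5 array. Its bound was the highest of all members, at least 54.9-fold and 47.9-fold lower at day 2 and at least 61.8-fold and 45.0-fold at day 5. A further probe set that names Top2a alone was low throughout, with means of 1.97, 1.77 and 0.34 at the 3 times in order. The fall of Top2a thus rests on 1 of the 2 probe sets that name it alone. Probe sets naming Top2a beside another gene were not used and fell far less. Their means at the 3 times were 5.77, 5.31 and 4.56 in one, and 5.80, 5.30 and 4.56 in the other. Mki67, the gene of the proliferation antigen Ki-67, was 8.74, 3.26 and 2.87 on each array of the 3 times in order and was at least 30.2-fold and 26.5-fold lower at day 2.

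The spindle proteins fell in 5 of 5 cases at both times, and 0 of 5 were above the yardstick at day 2. Tpx2, which activates Aurora A on the spindle, was 8.89 on each myoblast array, 3.63 at day 2 and 3.72 at day 5, at least 33.6-fold and 29.5-fold lower at day 2. Prc1, the bundler of antiparallel microtubules in the midzone, was 8.80, 8.80 and 8.79 in cycling myoblasts and 3.80 on each day 2 array, at least 31.4-fold and 27.4-fold lower. Hmmr, Nusap1 and Aspm, which act on spindle microtubules and poles, had day 2 bounds of 14.4-fold, 11.7-fold and 7.80-fold as deposited. With a median fitted log2FC of -5.00 and -4.81 this role had the lowest median at day 2, while the pair of transcription factors had the highest, at -2.79 and -2.45. The medians of the other roles lay between -4.56 and -3.48 as deposited. Medians over a few floor-bound members have no certain order.

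The cytokinesis genes, 3 of 3 lower at both times, did not move in step. Anln, the contractile ring scaffold anillin, was 9.14, 9.18 and 9.19 in cycling myoblasts, 3.44 on each day 2 array and 2.66 on each day 5 array, at least 40.8-fold and 35.9-fold lower at day 2. Ect2, the exchange factor that switches on RhoA at the division plane, was 9.17 on each myoblast array, 5.52, 5.45 and 5.45 at day 2 and 3.41 on each day 5 array. Racgap1, the centralspindlin subunit that recruits Ect2, was 9.24 on each myoblast array, 6.05, 5.9995 and 5.9952 at day 2 and 5.74 on each day 5 array. Ect2 and Racgap1 thus stood at similar depth below their myoblast levels at day 2 (13.0-fold and 11.1-fold for Ect2, 9.38-fold and 8.23-fold for Racgap1). At day 5 Ect2 was below the yardstick, at least 46.0-fold and 33.7-fold lower than in cycling myoblasts, while Racgap1 stayed clear of it at 11.3-fold and 6.37-fold lower.

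The transcription factors on the list, known from other cell systems to act with MuvB, fell as well, 2 of 2 at both times. Foxm1 was 7.06, 3.85 and 3.41 on each array of the 3 times in order, at least 9.30-fold and 7.47-fold lower at day 2. Mybl2, which encodes B-Myb, was 7.36, 7.36 and 7.33 in cycling myoblasts, 4.93, 5.10 and 4.93 at day 2 and 4.41, 4.41 and 4.50 at day 5. It stayed above the yardstick at both times and was 5.15-fold and 4.00-fold lower at day 2.

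**Figure D4:**
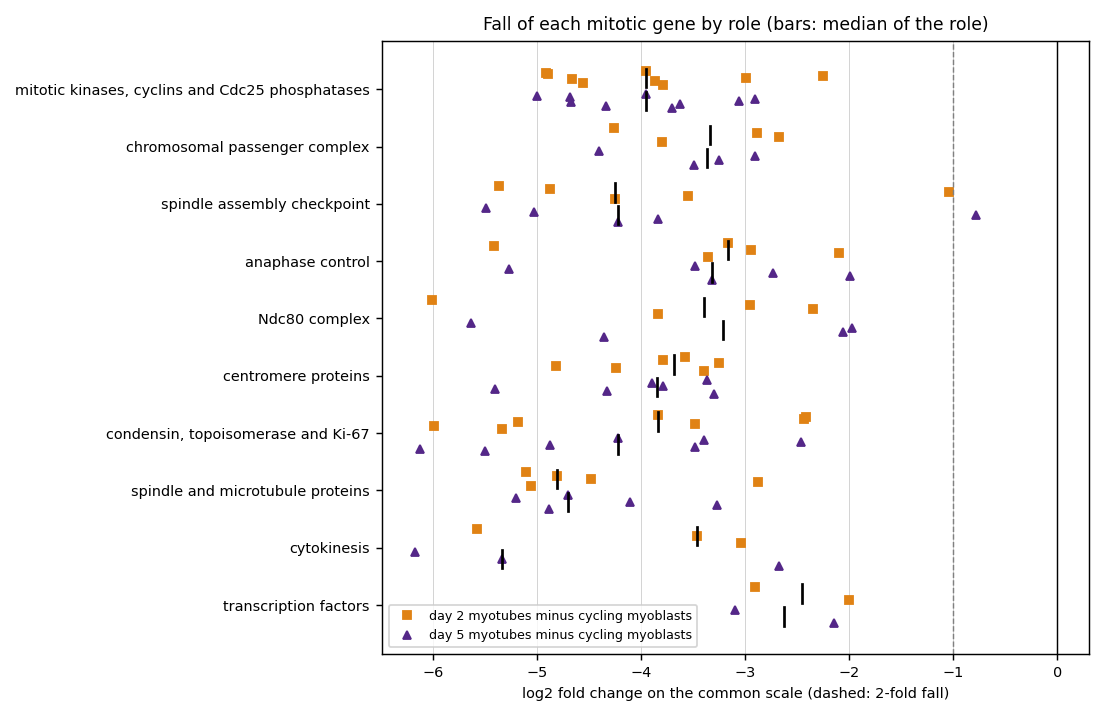
Log2 fold change against cycling myoblasts on the common scale of each mitotic gene, by role, at day 2 (squares) and day 5 (triangles), with the median of each role as a bar and a 2-fold fall dashed. Bub3 alone lies to the right of the dashed line at day 5 (-0.78), and Nuf2 is farthest left at day 2 (-6.01).

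Levels that stood clear of the low plateau in myotubes were few. Counting a member as clear where all 3 arrays were above the yardstick and its value was held by fewer than 50 probe sets, a rule chosen after the values were seen, left 10 members at day 2. These were Bub3, Cdc25b, Mad2l1, Cdc20, Spc24, Smc4, Ncapd2, Ect2, Racgap1 and Mybl2. At day 5 there were 9, and 7 were clear at both times: Bub3, Cdc25b, Mad2l1, Spc24, Smc4, Ncapd2 and Racgap1. Cdc20, Ect2 and Mybl2 were clear at day 2 but not at day 5, and Ndc80 and Tpx2 at day 5 but not at day 2. The rule does not rank levels. At day 5 Ndc80 (3.89, 3.68 and 3.68) and Tpx2 (3.72 on each array) were only just above the yardstick of 3.63 to 3.66. Mybl2 was higher then, at 4.41, 4.41 and 4.50, and was left out for its shared value alone. The 10 members clear at day 2 come from 7 roles, namely entry into mitosis, the checkpoint, anaphase control, the Ndc80 complex, condensin, cytokinesis and transcription.

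Between day 2 and day 5 few members passed, near the share of all genes. Only 22 of 50 were above the yardstick on all 3 day 2 arrays, so for most the size of a later change is uncertain. At least 2-fold lower at day 5 than at day 2 on both scales was 1 of 50 members, where 3.67% of all genes tested were, and 0 members were higher, where 0.766% were. Without the size limit limma called 26 members lower and 5 higher on both scales at an adjusted p of 0.05, where 40.6% and 16.2% of all genes were. The 1 was Ect2, with a log2FC of -2.06 as deposited and -1.87 on the common scale (common-scale SE 0.0211, limma adjusted p = 4.83e-11). As deposited alone, Smc4 (-1.50) and Cdc25b (-1.11) also passed, where 15.4% of all genes did. On the common scale they were at -0.98 and -0.65. The day 5 and day 2 arrays of these 3 members did not overlap, again without a count over all genes. Ndc80 had the largest difference upward, 0.66 as deposited and 0.99 on the common scale, with its day 2 arrays below the yardstick. For 16 of the 50 members the sign depended on the scale, below 0 as deposited and above 0 on the common scale. Of those clear of the plateau at both times, Bub3 was at -0.43 and 0.26, Racgap1 at -0.27 and 0.37 and Spc24 at -0.17 and 0.29. In all, the deposited values put 44 members below 0 and the common scale 28. The members' median log2FC on the 2 scales was -0.30 and -0.019, beside -0.40 and 0.055 over all genes tested.

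Set as a share of the fall reached at day 5, the fall at day 2 was nearly complete for most members. The median share on the 2 scales was 93.2% and 99.3%, and 32 members as deposited and 42 on the common scale had at least 90% of their day 5 fall by day 2. The lowest shares belonged to Ect2 (64.2% and 65.0%), Smc4 (63.4% and 71.2%) and Cdc25b (69.5% and 77.7%). All of these were clear of the plateau at day 2. Members already below the yardstick on day 2 could still differ at day 5, as Anln did by -0.78 and -0.60 and Nuf2 by 0.17 and 0.38. The size of changes among such low values is uncertain. The part of a floor in shares near 100% was not tested. Among the 7 members clear at both times, 5 had a share under 90% as deposited, and the scale moved the values. As deposited the share was 63.4% for Smc4, 69.5% for Cdc25b, 72.7% for Bub3, 81.8% for Mad2l1, 85.2% for Ncapd2, 92.2% for Racgap1 and 94.0% for Spc24. On the common scale it was 71.2% for Smc4, 77.7% for Cdc25b, 92.4% for Mad2l1, 99.0% for Ncapd2, 114% for Spc24 and for Racgap1 and 134% for Bub3, where a share above 100% means that the day 5 level was above the day 2 level.

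**Figure D5:**
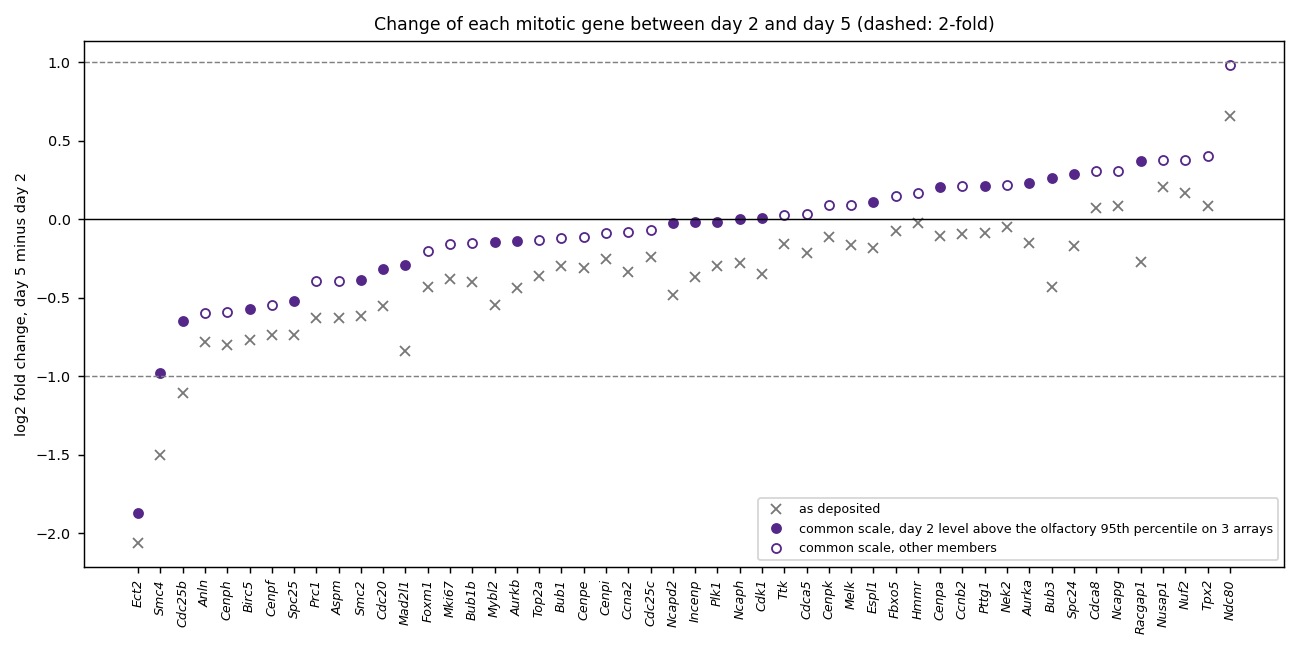
Log2 fold change of each mitotic gene, day 5 minus day 2, as deposited (crosses) and on the common scale (filled where all 3 day 2 arrays were above the olfactory yardstick, open otherwise), with 2-fold changes dashed. Ect2 lies below the lower dashed line on both scales (-2.06 and -1.87), Smc4 at -1.50 and -0.98, and Ndc80 just under the upper one on the common scale (0.99).

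Other genes of the same pathway were read from lists drawn up by role. Of 26 tested further kinetochore and centromere genes, 21 (80.8%) were lower at day 2 and 23 (88.5%) at day 5 at least 2-fold on both scales, where 8.41% and 12.3% of all genes tested were, and 0 were higher at either time. Of 20 further spindle and cytokinesis genes, 18 were lower at both times and 0 higher. The largest falls at day 2 on the common scale in these lists were those of the kinetochore scaffold Knl1 (log2FC -4.79 and -4.54), Zwilch of the checkpoint's RZZ complex (-4.78 and -4.52), Depdc1a (-4.90 and -4.50) and the mitotic kinase Pbk (-4.72 and -4.45). As in the members, their day 2 levels were low, at 3.01, 2.92, 1.79 and 2.98 on each array. The list medians at day 2 were -2.44 and -2.13 for the kinetochore list and -3.17 and -2.85 for the spindle list, beside -0.014 and 0.087 over all genes tested.

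Further lists held genes that also have tasks outside mitosis, and are read against the 8.41% of all genes that were lower at day 2 and the 12.3% at day 5. Of 16 subunits and E2 enzymes of the anaphase-promoting complex, a ubiquitin ligase, 1 was lower at day 2 (Ube2c, the E2 enzyme that starts ubiquitin chains, log2FC -2.14 and -1.76) and 2 at day 5, with 0 higher. These are 6.25% and 12.5% of the list, about the share of all genes by this call. Without the size limit 11 of 16 were lower and 2 higher on both scales at day 2, where 37.4% and 42.8% of all genes were. As deposited alone, 11 of 16 were at least 2-fold lower at day 5, where 29.2% of all genes were. The list median was -0.47 and -0.29 at day 2 and -1.20 and -0.34 at day 5, beside -0.37 and 0.17 over all genes tested at day 5. Of 12 genes of cohesin and its regulators, 2 were lower at day 2 and 7 at day 5. Those at day 2 were Esco2, an acetyltransferase that acts on cohesin in S phase (log2FC -3.44 and -3.14), and the cohesin ATPase Smc1a (-1.58 and -1.47). Of the 3 subunits particular to condensin II, Ncapg2 (-4.07 and -3.79) and Ncapd3 (-2.004 and -1.66) were lower at both times. In the MuvB core and DREAM complex 2 of 11 genes were lower at day 2, the pocket protein Rbl1, or p107 (-2.81 and -2.51), and the E2F partner Tfdp1 (-1.16 and -1.04), and 2 at day 5. Between day 5 and day 2, Stag1 of the cohesin list, named after its values were seen, was the only gene of these 6 lists to pass on both scales, with -1.66 and -1.03.

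Markers of the labelled cell types and of other cells were read beside these values. All 10 myotube markers, such as the creatine kinase Ckm (means of 6.19, 11.01 and 11.34 at the 3 times in order, with 3 arrays each), were higher than in cycling myoblasts at day 2 and 9 of 10 at day 5. From day 2 to day 5 the log2FC of the 10 ran between -1.37 and 0.33 as deposited. Without the size limit 5 were then lower and 2 higher on both scales, where 40.6% and 16.2% of all genes were. Of 7 myoblast markers, Pax7, Myf5 and Vcam1 were lower at day 2, Des was higher and 3 had no call. At day 5, 5 of the 7 were lower and 1 was higher, where 12.3% and 4.44% of all genes tested were. The summed level of 8 fibroblast markers, on the log2 scale, was between 9.34 and 9.37 on the myoblast arrays, 7.83 on the day 2 arrays and between 7.28 and 7.29 on the day 5 arrays. Above the yardstick on all 3 arrays were 6, 5 and 5 of these 8, and Dcn and Lum were never above it. Of the 6 fibroblast markers tested, 1 was at least 2-fold lower on both scales at either time and 5 had no call. The 1 was Col3a1, a collagen of connective tissue, at 8.92, 6.06 and 4.77. The median level of the 8 was 4.66, 4.86 and 4.52 at the 3 times in order, and their median log2FC at day 2 was -0.19 and -0.011. The summed level is thus weighted to Col3a1, the highest of them in cycling myoblasts. Of 6 macrophage and leukocyte markers 1, 2 and 1 were above the yardstick at the 3 times, of 5 endothelial markers 0 at each time, and of 4 adipocyte markers 2 at each time. The part of other cell types in the falls of the mitotic genes was not tested.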

How the data were processed

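The deposited table holds log2 expression values of 35556 probe sets on 9 arrays, made by the authors with RMA per replicate set, per the labels and the submitters' processing notes. The software version was not given in the sources used here. Sorted values of 2 arrays differed on average by at most 0.0251 within a time point and by at least 0.188 between them, so each time point was normalized apart. Across probe sets Pearson r was at least 0.990 within a time point.

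Of the probe sets, 21789 carried 1 gene name in the platform annotation, 1621 several and 12146 none. Those with 1 name were used. Entrez identifiers of 21698 probe sets matched RefSeq (GRCm38.p6), and 0 symbols changed. The probe set with the highest mean stood for a gene. Genes above the 30th percentile of the array on at least 3 arrays were tested, 16582 in all, and all 50 measured members passed this filter. Because it can be passed through the myoblast arrays alone, counts over members are given as descriptions beside the share of all genes.

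The lmFit and eBayes functions of limma 3.58.1 (R 4.3.3) fitted one linear model over the 9 arrays, with a mean per time, to the deposited values and again on the common scale. A call needs an adjusted p under 0.05 (Benjamini-Hochberg over all genes tested) and at least a 2-fold change on both scales. SE values are limma's. Its prior SD was 0.000313, since many genes had almost no spread between replicates. The script was tested on simulated data. The alternatives were centring, filters, probe set rules, trend and robust eBayes, limma treat, a replicate block and each array left out.

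The members, roles and other gene lists were chosen with earlier results of these data known. All members could be named, and of the other lists the 2 largest falls and rises called at day 2. Genes without a probe set naming them alone were left out of the counts. Motif letters were searched on both strands in RefSeq promoter windows.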

Additional observations from a re-analysis of the deposited data

How the results depend on the processing

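The count of members at least 2-fold lower at day 2 was 50, or 49 with the lowest-mean probe set of a gene, when Top2a was too low to be tested, and with limma treat, when Bub3 did not pass, and at day 5 it was 49, or 48 with the lowest-mean probe set and 50 with arrays centred on their median or as deposited alone. With each array left out in turn the counts stayed at 50 for day 2 and 49 for day 5. Between day 5 and day 2 the count of 1 became 2 with centred arrays and 3 as deposited alone. It was between 1 and 2 with an array left out, and it was 2 without day 5 replicate 3, when Smc4 joined Ect2. The median log2FC of the members at day 2, -4.08 as deposited, was -3.79 after quantile normalization, -3.9999 with centred arrays, -4.06 with the mean of a gene's probe sets, -4.07 with the lowest-mean probe set and between -4.09 and -4.05 with an array left out. At day 5 it was -4.47, and in the same order -3.87, -4.12, -4.33, -4.39 and between -4.48 and -4.45. Between day 5 and day 2 it was -0.303, and -0.019 after quantile normalization, -0.0253 with centred arrays and -0.2989 with the lowest-mean probe set, and with an array left out it stayed at -0.303. The sign of Bub3 between day 5 and day 2 reversed to 0.26 after quantile normalization, that of Racgap1 to 0.37 after it and to 0.0037 with centred arrays, and that of Spc24 to 0.29 and 0.11. Bub3 at day 5 against cycling myoblasts (-0.78), and Smc4 (-0.98) and Cdc25b (-0.65) between day 5 and day 2, dropped under the 2-fold limit after quantile normalization, as did Cdc25b (-0.83) with centred arrays. Followed were 1 value per member for each comparison with cycling myoblasts, and the values of 7 members between day 5 and day 2. Under the alternatives 1908 of 1917 kept direction and call (limma treat not among them, and Top2a without a value for its lowest-mean probe set). Each was judged on 1 scale, as deposited unless the alternative was itself a scale, so this is not the call on both scales. The 1917 include 100 lower bounds, which were judged by size alone. The members outside those 7 were not followed between day 5 and day 2, where 16 of all 50 changed sign after quantile normalization. The causes of these shifts were not tested beyond the scale itself.

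Over all genes tested, the scale set the counts more than for the members. At day 5 against cycling myoblasts 2040 genes were lower and 736 higher on both scales, 4840 and 736 as deposited, 2040 and 1960 on the common scale, and 3336 and 1413 with centred arrays. Between day 5 and day 2 the counts were 609 and 127 on both scales, 2548 and 127 as deposited, 609 and 461 on the common scale, and 1287 and 234 with centred arrays.

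Deviations of same-numbered arrays from their group means correlated between -0.0038 and 0.0406. This cannot settle whether replicate numbers pair the samples, since between 47.9% and 60.2% of probe sets had the same value on all 3 arrays of a group. With the replicate block the counts were 50, 49 and 1 and the medians -4.08, -4.47 and -0.303, as without it. The table holds no measure of background, and most myotube levels of the members lie on plateaus, so bounds rather than sizes can be read. The 2 comparisons with cycling myoblasts share their arrays.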
